A study of Homo sapiens with 6 samples.

Results

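The 10 genes described here build and control the replicative helicase at origins of DNA replication. They were chosen by name: MCM2, MCM3, MCM4, MCM5, MCM6 and MCM7, which form the helicase ring, MCM10, and the licensing genes CDC6, CDT1 and GMNN. All 10 of them were among the 18244 genes that the array named by 1 symbol, and all 10 passed the filter on dim signals that left 12198 genes to be tested. They were read by 30 probe sets, all of them above that filter, and each gene was represented by its brightest one. MCM5 and GMNN had 1 probe set each.

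Affymetrix 1-colour arrays measured RNA in P493-6, a human B-cell lymphoma line that carries a c-Myc transgene repressed by tetracycline. All groups were this line grown in RPMI medium with serum, and they differed in how long the transgene had been released from repression. The low-Myc group was taken at 0 hours, the mid-Myc group at 1 hour and the high-Myc group at 24 hours, with 2 arrays per group that the design text calls biological duplicates. For mid-Myc, 1 protocol field gives 0 hours and another gives 1 hour. The second was used because these cells are labelled as expressing a moderate level. The mid-Myc arrays have sample numbers far from those of the others, and if they were made separately, a batch cannot be told apart from the effect of 1 hour. The samples are a single cell line with an inducible transgene, and p-values measure the spread between its duplicates.

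The study asked how expression reads when arrays are set to a common level, or instead to ERCC synthetic RNAs added by cell number. Each change is therefore given on a log2 scale in both ways. The per-cell scale sets each array against its ERCC probe sets. The equal-median scale (values at equal medians) centres each array on its median human probe set and so takes RNA per cell as equal. In such bulk samples, fewer cells that express a gene and less RNA of it per cell cannot be told apart.

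Before S phase, the origin recognition complex, CDC6 and CDT1 load the MCM2-7 ring onto DNA as an inactive double hexamer, a step called licensing. Kinases, CDC45 and the GINS complex then turn the ring into a moving helicase, and geminin (GMNN) binds CDT1 so that origins are not licensed again in the same cycle. Most of these genes are textbook targets of E2F factors, so their RNA climbs as cells leave a resting state for S phase, and several are also bound by MYC at E-box sequences.

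Because these genes moved together at 24 hours, their promoters were read for the letters of E2F-type and E-box sites. RefSeq promoter windows of 300 bases, from 250 before to 50 after the annotated start (GRCh38.p14), were found for 8 of the 10 genes, in 11 windows. E2F-type letters (TTTCCCGC, TTTGGCGC, TTTCGCGC or TTTGCCGC, either strand) were in 7 of the 8 genes and 7 of the 11 windows, against 3.31% of all 35116 promoter windows. The E-box CACGTG was in 3 of the 11 windows, those of MCM2, MCM7 and GMNN, against 7.26% of all. Both were in 2 of the 11, against 0.308%. CCAAT was in 8 of the 11 windows, against 34.6%. A match is a description of the letters and not of binding.

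The 5 windows below were chosen to show the kinds of arrangement, with E2F-type and E-box matches in capitals and bases counted from 0 at the annotated start. MCM6 (chr2:135876394-135876693, minus strand) held the most matches, 4 in 2 overlapping pairs from -152 to -141 and from -90 to -79. MCM2 (chr3:127598161-127598460, plus strand) held an E-box from -11 to -6 beside an overlapping pair from 2 to 13. MCM7 (chr7:100101348-100101647, minus strand, the third of its windows) held an E-box from -25 to -20 beside an E2F-type match from -9 to -2, with another from -187 to -180. CDC6 (chr17:40287629-40287928, plus strand) held 1 match from 7 to 14. MCM10 (chr10:13161308-13161607, plus strand) held none of the E2F-type or E-box letters listed above. Other forms of these sites were not searched for, so a window without a match may still hold one.
MCM6: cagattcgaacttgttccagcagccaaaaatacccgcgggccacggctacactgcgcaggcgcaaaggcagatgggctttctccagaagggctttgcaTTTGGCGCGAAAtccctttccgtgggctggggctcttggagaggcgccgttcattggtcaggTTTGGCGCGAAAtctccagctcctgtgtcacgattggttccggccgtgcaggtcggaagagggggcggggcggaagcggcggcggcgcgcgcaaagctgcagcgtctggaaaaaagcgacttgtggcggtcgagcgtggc
MCM2: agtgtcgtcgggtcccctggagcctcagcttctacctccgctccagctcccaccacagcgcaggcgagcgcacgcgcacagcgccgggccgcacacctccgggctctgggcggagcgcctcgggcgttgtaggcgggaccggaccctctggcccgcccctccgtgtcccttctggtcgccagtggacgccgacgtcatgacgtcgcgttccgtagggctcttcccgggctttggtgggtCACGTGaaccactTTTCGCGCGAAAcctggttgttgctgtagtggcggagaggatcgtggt
MCM7: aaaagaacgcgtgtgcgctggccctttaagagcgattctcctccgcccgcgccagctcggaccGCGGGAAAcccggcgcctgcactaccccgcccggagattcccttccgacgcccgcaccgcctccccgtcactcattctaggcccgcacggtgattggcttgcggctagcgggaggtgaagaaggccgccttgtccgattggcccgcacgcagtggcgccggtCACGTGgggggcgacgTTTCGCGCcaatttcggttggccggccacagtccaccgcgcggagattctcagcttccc
CDC6: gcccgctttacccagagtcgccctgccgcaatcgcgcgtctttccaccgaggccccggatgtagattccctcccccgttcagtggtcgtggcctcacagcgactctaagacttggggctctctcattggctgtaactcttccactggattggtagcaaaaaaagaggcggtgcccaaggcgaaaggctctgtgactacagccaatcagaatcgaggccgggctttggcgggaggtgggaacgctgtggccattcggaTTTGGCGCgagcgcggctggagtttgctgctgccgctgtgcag
MCM10: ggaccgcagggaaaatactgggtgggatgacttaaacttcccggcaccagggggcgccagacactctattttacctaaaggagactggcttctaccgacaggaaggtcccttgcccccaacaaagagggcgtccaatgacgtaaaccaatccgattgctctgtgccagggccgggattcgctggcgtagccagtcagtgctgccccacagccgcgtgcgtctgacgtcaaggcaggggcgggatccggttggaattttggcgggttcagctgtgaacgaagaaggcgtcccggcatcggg

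MYC itself, the released gene, averaged 10375 deposited intensity units at 0 hours, 9986 at 1 hour and 11934 at 24 hours. It was higher in high-Myc by 0.96 per cell and by 0.34 at equal medians, and in mid-Myc by 0.13 and 0.09. The sources used here do not say whether its probe set reads the transgene. Replicates correlated at r = 0.996 over genes in each group, computed across genes, which are not replicates. Of 8 B-cell markers, 7 had a named probe set and all 7 passed the filter, led by MS4A1 at a mean of 11622. Their summed intensity ran from 21795 to 21834 at 0 hours, from 21891 to 22633 at 1 hour and from 14456 to 14633 at 24 hours. T and NK markers summed to between 329 and 425, with CD3D at 19.2, and monocyte markers to between 557 and 1605, led by LYZ at a mean of 948, with CD14 at 17.5. The ratio of 3' to 5' signal for ACTB was 2.81 ± 0.07, 2.97 ± 0.12 and 3.56 ± 0.16 (SD, n = 2) in low-, mid- and high-Myc, and for GAPDH 1.17, 1.23 and 1.18. The part of these markers and ratios in the changes below was not tested.

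All 10 licensing genes rose between 0 and 24 hours of c-Myc release. The rises were 2.90 log2 at the median per cell, ranging from 1.48 for MCM5 to 3.63 for CDC6, and 1.86 at the median on the equal-median scale, from 0.57 to 2.48. Over all genes tested the medians were 0.97 and 0.05. Called higher per cell were 10 of 10 members, where 90.8% of all genes tested were called higher, so that count is near the background. On the equal-median scale 10 of 10 were called higher, against 37.7% of all genes (limma, two-sided, Benjamini-Hochberg adjusted p under 0.05). There, 9 of the 10, all but MCM5, rose at least 2-fold, as did 1354 of the 12198 genes tested. Both high-Myc arrays lay above both low-Myc arrays for all 10 members on each scale, as they did for 93.5% of all genes per cell and 45.0% at equal medians.

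**Figure D1:**
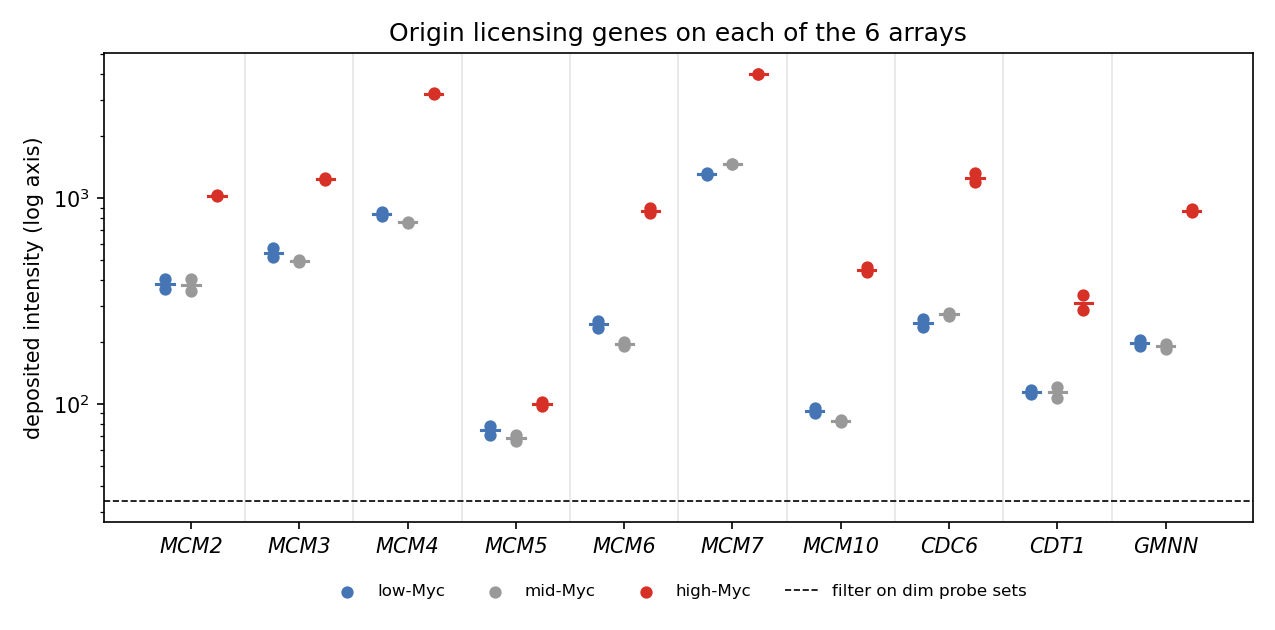
Deposited intensity (log axis) of the probe set used for each gene on each of the 6 arrays; points are arrays, short bars are means of 2, and the dashed line is the filter at 33.8. The high-Myc arrays stand above the others for every gene, by the least for MCM5, while low-Myc and mid-Myc lie close together.

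CDC6, the ATPase that joins the origin recognition complex to load the helicase, had the largest rise of the 10 by the probe sets used. Its deposited intensity was 260 and 237 at 0 hours, 269 and 277 at 1 hour, and 1199 and 1319 at 24 hours. Both high-Myc arrays lay far above the other 4, and both mid-Myc arrays lay slightly above both low-Myc arrays. The rise at 24 hours was 3.63 ± 0.06 per cell (SE) and 2.48 ± 0.07 at equal medians (limma adjusted p = 6.58e-12), rank 62 of 12198 genes. At equal medians its second probe set rose by 2.10 and the next brightest MCM4 probe set by 2.58, so this first place rests on the probe set.

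CDT1, which carries the MCM ring to the origin and is destroyed in S phase, was dimmer. It read 112 and 116 in low-Myc, 107 and 121 in mid-Myc, and 285 and 337 in high-Myc. The mid-Myc arrays lay on either side of the low-Myc pair as deposited, and the high-Myc arrays lay above all of them, with the largest spread between duplicates of any member in that group (SD 0.19 log2, n = 2). The rise was 2.64 ± 0.10 per cell and 1.58 ± 0.10 at equal medians (limma adjusted p = 5.90e-09).

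Geminin, the inhibitor of CDT1, was read by its only probe set at 206 and 191 in low-Myc, 196 and 186 in mid-Myc, and 856 and 882 in high-Myc. The low-Myc and mid-Myc intensities overlapped, and both high-Myc arrays were far above them. GMNN rose by 3.41 ± 0.06 per cell and 2.27 ± 0.07 at equal medians (limma adjusted p = 6.93e-12), rank 106. The inhibitor therefore stood among the members with the larger rises, beside CDC6.

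Because CDT1 and GMNN bind each other, their difference was followed within each array, where a factor common to the array drops out. The difference between probe sets has no meaning as a level, so only its change is read. CDT1 minus GMNN was -0.88 and -0.71 log2 in low-Myc, -0.87 and -0.62 in mid-Myc, and -1.58 and -1.39 in high-Myc. The high-Myc arrays lay below the other 4, and the change from low-Myc was -0.69 (two-sided exact permutation p = 0.333, the smallest that 2 arrays against 2 can give). From mid-Myc it was -0.74, again with no overlap (exact permutation p = 0.333). The CDT1 mean of 114 in both low-Myc and mid-Myc lies below the second brightest of the array's 23 background control probe sets (194), so it is not shown to be above background, and the part of this in the change was not tested. The GMNN mean of 191 in mid-Myc also lies below that probe set, and its mean of 198 in low-Myc lies little above. CDC6 minus GMNN shares this limit. The other 2 CDT1 probe sets, both dimmer, rose by 1.07 and 1.06, less than the 1.58 of the one used, and with the mean of probe sets the change from low-Myc was -1.04.

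CDC6 minus GMNN moved less. It was 0.34 and 0.31 in low-Myc, 0.46 and 0.58 in mid-Myc, and 0.49 and 0.58 in high-Myc. Mid-Myc and high-Myc arrays overlapped and both lay above low-Myc, by 0.19 and 0.21 (exact permutation p = 0.333 for each). With the mean of CDC6's probe sets these changes were 0.07 and 0.02, so their size rests on the probe set.

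**Figure D2:**
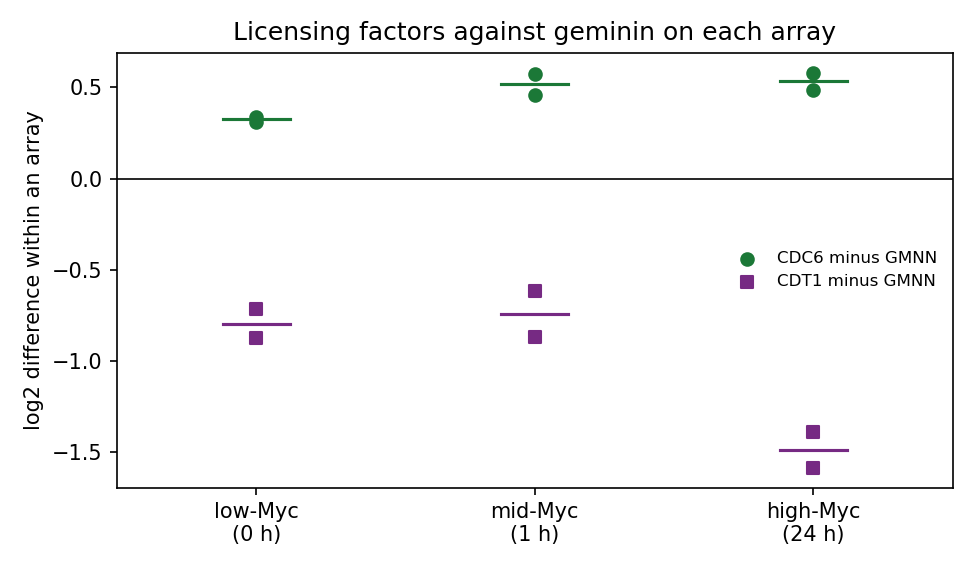
Within-array log2 difference between CDC6 or CDT1 and GMNN on the equal-median scale, by hours of c-Myc release; points are arrays and bars are means of 2. CDT1 minus GMNN lies between -0.88 and -0.62 at 0 and 1 hours and between -1.58 and -1.39 at 24 hours, while CDC6 minus GMNN stays between 0.31 and 0.58.

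The 6 subunits of the ring all rose, though not by equal amounts. MCM4, MCM6 and MCM7, which form the stable core with helicase activity in isolation, are given first. MCM4 read 822 and 855 in low-Myc, 760 and 770 in mid-Myc, and 3233 and 3197 in high-Myc. Its mid-Myc arrays were the lowest pair as deposited and its high-Myc arrays were far above both. It rose by 3.09 ± 0.04 per cell and 2.08 ± 0.05 at equal medians (limma adjusted p = 8.96e-13).

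MCM6 read 252 and 235 in low-Myc, 192 and 199.99 in mid-Myc, and 843 and 894 in high-Myc. The 3 groups did not overlap as deposited, with mid-Myc lowest. The rise at 24 hours was 3.12 ± 0.06 per cell and 1.97 ± 0.07 at equal medians (limma adjusted p = 3.23e-11). MCM7 was the brightest member, at 1331 and 1290 in low-Myc, 1470 and 1459 in mid-Myc, and 3990 and 3997 in high-Myc. Its groups were stepwise and did not overlap. MCM7 rose by 2.69 ± 0.03 per cell and 1.75 ± 0.04 at equal medians (limma adjusted p = 1.77e-12).

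MCM2, the subunit that also binds histones, read 362 and 405 in low-Myc, 353 and 406 in mid-Myc, and 1022 and 1035 in high-Myc. Low-Myc and mid-Myc spanned nearly the same range and high-Myc lay above. It rose by 2.71 ± 0.08 per cell and 1.56 ± 0.08 at equal medians (limma adjusted p = 7.27e-10). MCM3, which pairs with MCM5 in the ring, read 570 and 518, then 492 and 498, then 1229 and 1247 in the same order of groups. Its mid-Myc arrays were below its low-Myc arrays as deposited, and its high-Myc arrays were above both. The rise was 2.44 ± 0.05 per cell and 1.33 ± 0.06 at equal medians (limma adjusted p = 3.60e-10).

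MCM5 changed least. Its only probe set read 77.8 and 71.0 in low-Myc, 70.8 and 66.1 in mid-Myc, and 98.1 and 103 in high-Myc. The high-Myc arrays were the highest but stood close to the others. The rise was 1.48 ± 0.09 per cell and 0.57 ± 0.10 at equal medians (limma adjusted p = 0.000178), rank 2720 of 12198, where the other 9 members ranked between 62 and 747. This signal is dim: of 23 background control probe sets on the array, the brightest averaged 697 and the next 194, both above the MCM5 mean of 81.1. The 7 background probe sets that passed the filter differed between high-Myc and low-Myc by 0.73 to 1.56 on the per-cell scale and by 0.09 to 0.44 on the other. The per-cell value of MCM5 lies within that range and its equal-median value lies above it.

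Against the mean of the 6 subunits within each array, MCM4 gained 0.53 and MCM6 gained 0.43 from low-Myc to high-Myc on the equal-median scale. MCM7 gained 0.20 and MCM2 0.02, while MCM3 changed by -0.22 and MCM5 by -0.97. The arrays of the 2 groups overlapped in this measure for MCM2 alone. Other probe sets moved these values: the MCM6 gain was 0.36 or 0.06 with its other 2, the second with overlapping arrays, and that of MCM7 ran from -0.03 to 0.54. MCM2 ran from -0.27 to 0.18 and MCM3 from -0.43 to 0.13, while MCM4 stayed between 0.35 and 0.98. With the mean of probe sets for all 6, MCM4 gained 0.76 and MCM6 0.25, and MCM5 changed by -0.98. Unequal rises of 1 probe set per subunit show no unequal amounts of protein, and the mean includes the dim MCM5.

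MCM10, which joins the loaded helicase as it is activated, had the second largest rise by the probe sets used at equal medians. It read 90.6 and 95.2 in low-Myc, 83.8 and 82.0 in mid-Myc, and 436 and 461 in high-Myc. The mid-Myc pair was the lowest as deposited, and both high-Myc arrays lay far above the other 4. It rose by 3.46 ± 0.08 per cell and 2.41 ± 0.08 at equal medians (limma adjusted p = 1.08e-11), rank 75. Its low-Myc and mid-Myc means of 92.9 and 82.9 also lie below that background probe set at 194, so the size of the rise and the rank are taken against a level not shown to be above background. Its other 2 probe sets, dimmer still, rose by 2.16 and 1.74.

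**Figure D3:**
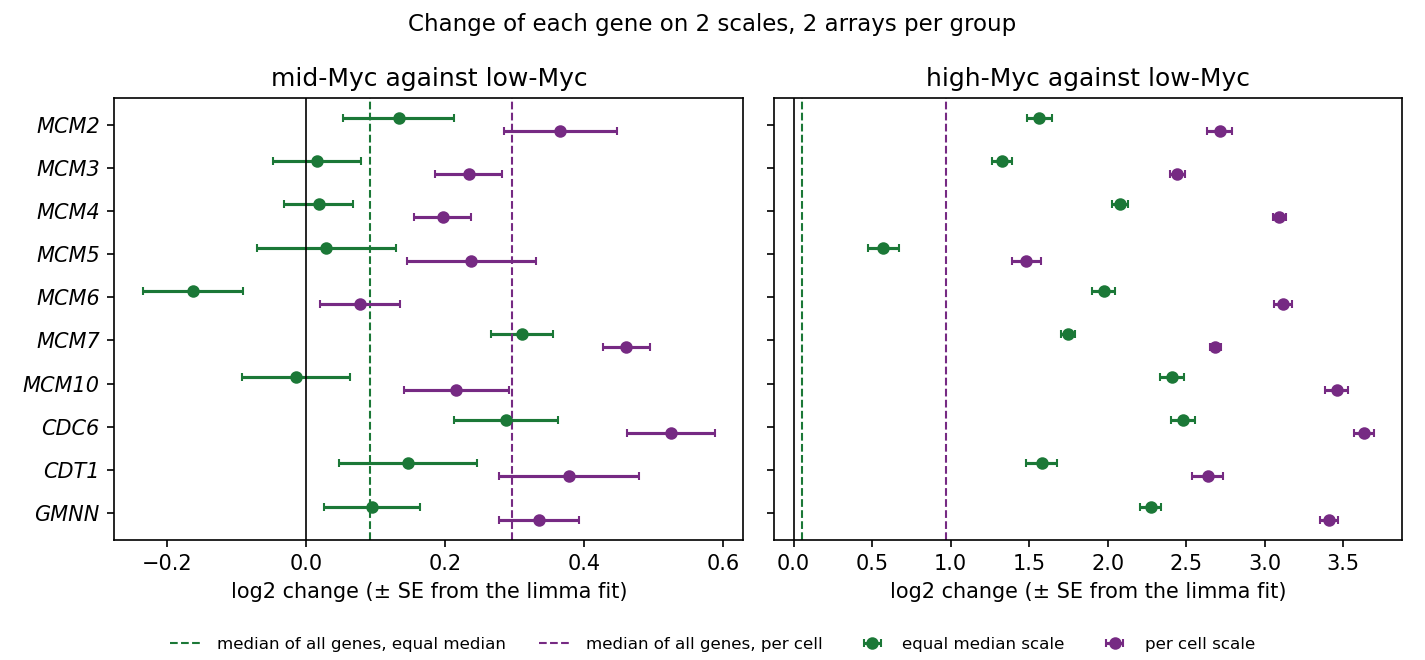
Log2 change of each gene from low-Myc to mid-Myc (left) and to high-Myc (right) with the SE of the limma fit, on both scales; dashed lines are medians of the 12198 genes tested. At 1 hour the members scatter around those medians, and at 24 hours all 10 lie to the right of them.

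After 1 hour the picture differed by scale. Called higher per cell were 9 of 10 members, all but MCM6, against 62.4% of genes called higher and 0.697% called lower. With 1 ERCC factor per array 5 were called, without MCM3, MCM4, MCM5 and MCM10. In that setting 5732 of the 12198 genes tested were called higher, so this count too is near the background. MCM5 kept its call in 4 of 15 alternatives and MCM10 in 7 of 16, and CDT1 lost it without mid-Myc replicate 2 (limma adjusted p = 0.0691). MCM6 was called higher with its next brightest probe set (0.38, limma adjusted p = 0.00867) and with the mean of probe sets (0.23, limma adjusted p = 0.00977). The members' median of 0.29 was close to the 0.30 of all genes. On the equal-median scale 2 of 10 were called higher, against 25.7% of genes, and none was called lower, against 3.39%. The members' median there was 0.06 and that of all genes 0.09, so at 1 hour their share and median were near the background.

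Those 2 genes were MCM7 and CDC6. MCM7 was higher by 0.31 ± 0.04 (limma adjusted p = 0.000243), and its other 3 probe sets gave 0.21, 0.47 and 0.16. CDC6 was higher by 0.29 ± 0.07 (limma adjusted p = 0.0111), but its second probe set gave 0.04. The CDC6 call was lost under quantile normalization, cyclic loess, values as deposited and centring on the genes tested, where its change was between 0.14 and 0.17. MCM7 kept its direction under all 4 scalings and missed the threshold under quantile normalization (limma adjusted p = 0.0501).

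MCM6 had the lowest 1-hour value, -0.16 ± 0.07 on the equal-median scale (limma adjusted p = 0.108), with mid-Myc arrays below low-Myc arrays. It was called lower under those same 4 scalings, by 0.28 to 0.31, yet its other 2 probe sets gave 0.17 and 0.05. MCM4 stood at 0.02 and was called lower under 3 of them, but was called higher per cell, by 0.20. The remaining members lay between -0.01 for MCM10 and 0.15 for CDT1 and were not called. These scalings also moved the whole array: of the genes called at 1 hour, 88.3% were higher on the equal-median scale but 44.4% under quantile normalization, 50.5% under cyclic loess, 43.2% as deposited and 58.6% after centring on genes tested. For high-Myc against low-Myc those splits were 59.2%, 47.2%, 51.7%, 46.9% and 41.5%.

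Between 1 and 24 hours all 10 members rose. Their median rise was 2.62 per cell and 1.75 at equal medians, against 0.72 and 0.02 for all genes. On each scale 10 of 10 were called higher. The share of all genes called higher was 81.7% per cell and 33.3% at equal medians. By the probe sets used, the largest equal-median rise was that of MCM10, 2.42 ± 0.08, followed by CDC6 at 2.19, GMNN at 2.18 and MCM6 at 2.14. MCM5 was again the smallest at 0.54 ± 0.10 (limma adjusted p = 0.00028). This comparison and the one from low-Myc share the high-Myc arrays.

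**Figure D4:**
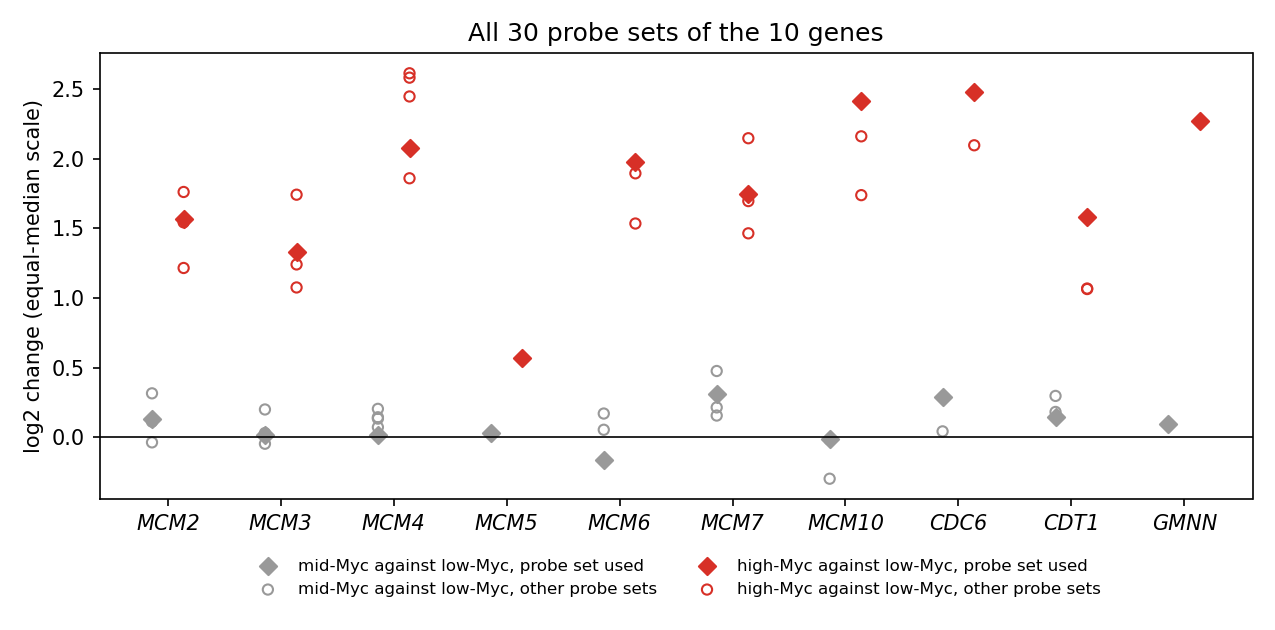
Log2 change on the equal-median scale of all 30 probe sets of the 10 genes, for mid-Myc and high-Myc against low-Myc; diamonds are the probe sets used and open circles the others. At 24 hours all lie above 0, and at 1 hour they scatter on both sides of it.

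The 20 probe sets not used had the sign of the one used in 20 of 20 cases at 24 hours against low-Myc, and likewise against mid-Myc, on both scales. At 1 hour the sign matched in 16 of 20 on the equal-median scale. The size varied more than the sign. For MCM4 the 24-hour change ranged from 1.86 to 2.61 on the equal-median scale, with the brightest probe set at 2.08. For MCM3 it ranged from 1.07 to 1.74, for MCM7 from 1.46 to 2.15 and for MCM6 from 1.53 to 1.97. The probe sets used for MCM2 and MCM3 are of a type that can share sequence with other transcripts, and that of MCM4 can read several transcripts.

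The scale itself added a similar amount to each member. At 24 hours the per-cell change exceeded the equal-median change by 0.91 for MCM5 to 1.15 for CDC6, and at 1 hour by 0.15 for MCM7 to 0.24 for MCM6. The smallest 24-hour gaps belonged to MCM5 and MCM7, whose probe sets gave the dimmest and the brightest signal of the members. By the probe sets used, the order of the members was nearly the same on both scales, led by CDC6, MCM10 and GMNN and closed by MCM3 and MCM5.

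Upstream of the ring, the origin recognition complex (ORC1 to ORC6 with its partner LRWD1) rose in 7 of 7 genes at 24 hours on the equal-median scale. The median was 0.97, below the members' 1.86, a gap that was not tested. ORC5 rose by 1.73, ORC6 by 1.21, ORC1, the subunit whose level is tied to the cell cycle, by 1.03 and LRWD1 by 0.97, while ORC4 rose least, by 0.37. Of all genes, 37.7% were called higher in this comparison. ORC1, ORC5 and LRWD1 averaged 55.9, 151 and 135 in low-Myc, below the background probe set at 194. The sizes of their rises are therefore taken against levels not shown to be above background. At 1 hour none of the 7 was called on this scale, where 25.7% of genes were called higher and 3.39% lower. Per cell 4 of 7 were called higher, near the 62.4% of all genes. Under the other 4 scalings 1 or 2 of the 7 were called lower at 1 hour, ORC4 among them each time. Of all 12198 genes, between 1034 and 1489 were called lower in those settings. Per cell ORC4 was called higher, by 0.16.

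Downstream, 14 of 14 genes of helicase activation and origin firing were called higher at 24 hours on the equal-median scale, against 37.7% of all genes. Their median rise was 1.25. GINS2 rose by 2.30, CDC45 by 2.07 and GINS1 by 1.95, parts of the active helicase with the MCM ring, and CDC7, the kinase that phosphorylates the ring, by 1.83. The smallest rise was that of TOPBP1, 0.42. At 1 hour DBF4, the activator of CDC7, was higher by 0.45 (limma adjusted p = 0.000707) and GINS2 by 0.23, whereas GINS1 fell by 0.21 (limma adjusted p = 0.0233). Per cell GINS1 stood at 0.03 and was not called. The calls of DBF4 and GINS1 held under the other 4 scalings and that of GINS2 under none of them, while TOPBP1, at -0.05, was called lower under all 4. Per cell TOPBP1 was called higher, by 0.16, so its direction at 1 hour depends on the scale. CDC45, CDC7, DBF4 and GINS2 averaged 78.3, 99.6, 156 and 135 in low-Myc, below the background probe set at 194. The sizes of their changes are therefore taken against levels not shown to be above background.

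Other MCM family and MCM-binding genes were called higher in 7 of 7 cases at 24 hours on the equal-median scale (median 1.12). Of all genes, 37.7% were called higher there. MCMBP, which binds MCM subunits, rose by 1.55, MMS22L by 1.31, MCM8 by 1.21 and LRR1, which helps unload the helicase, by 1.12. MCM8, which acts with MCM9 in recombination, was lower at 1 hour (-0.25, limma adjusted p = 0.0486), also under the other 4 scalings. Per cell it stood at -0.02 and was not called. MCM8 averaged 148 in low-Myc and 112 in mid-Myc, and MMS22L 77.1 in low-Myc, below the same background probe set. These levels are therefore not shown to be above background. The 24-hour count was 5 of 7 as deposited and 4 of 7 after centring on genes tested. HROB and TONSL, and in the second case MCM9, were not called. In these settings 3799 and 3500 of all 12198 genes were called higher. On the equal-median scale HROB, TONSL and MCM9 rose by 0.47, 0.34 and 0.39. Their low-Myc means were 33.4, 55.5 and 87.1, also below that background probe set. The 7 background probe sets that passed the filter differed by 0.09 to 0.44 on this scale. TONSL and MCM9 lie within that range and HROB just above it.

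Of 12 genes that control CDT1, CDC6 and geminin, 10 were tested, with a median change of 0.82 at 24 hours on the equal-median scale. Of these 10, 8 were called higher, against 37.7% of all genes. DTL, the adaptor that directs CDT1 to destruction during S phase, rose by 2.55. By the probe sets used this was more than any of the 10 licensing genes, but other MCM4 probe sets rose by 2.61 and 2.58. SKP2, another ubiquitin ligase part that acts on CDT1, rose by 1.32, DDB1 by 0.97 and CCNF by 0.90. CUL4B at -0.09 and FZR1 at 0.10 were not called, and GMNC and MCIDAS did not pass the filter. Under the other 4 scalings 7 were called higher, without KAT7, and CUL4B was called lower. Of all 12198 genes, between 3500 and 4045 were called higher in those settings and between 3774 and 4931 lower. SKP2 already stood higher at 1 hour, by 0.90 (limma adjusted p = 0.000145), as did KAT7, a histone acetyltransferase of licensing, by 0.43 and DDB1 by 0.32. The SKP2 and KAT7 calls held under the other 4 scalings, and that of DDB1 under 1 of them. SKP2 averaged 37.0 in low-Myc and 62.2 in mid-Myc, and KAT7 177 in low-Myc, all below the background probe set at 194. DTL and CCNF, at 186 and 91.7 in low-Myc, also lie below it. These levels are therefore not shown to be above background. KAT7 and CUL4B then fell between 1 and 24 hours, by 0.19 and 0.21 on the equal-median scale, and were called lower under all 4 others too. Per cell they were higher, by 0.66 and 0.70.

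Genes of G2 and mitosis, listed to show other phases of the cycle, had a median change of 0.81 at 24 hours on the equal-median scale. Called higher were 9 of 10, against 37.7% of all genes. CDK1 rose by 1.52, CCNB1 by 1.12, AURKA by 1.11 and AURKB by 0.93, and PLK1 at 0.13 was not called. AURKB and PLK1 averaged 155 and 65.6 in low-Myc, below the background probe set at 194. Their levels are therefore not shown to be above background. At 1 hour CCNB2 alone of the 10 was called higher, by 0.28, against 25.7% of all genes. The other 4 scalings did not give that call. The share of cells in each phase was not measured, and its part in these changes was not tested. Per cell, all tested genes of these 5 lists were called higher at 24 hours, where 90.8% of all genes were, so these counts are near the background.

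**Figure D5:**
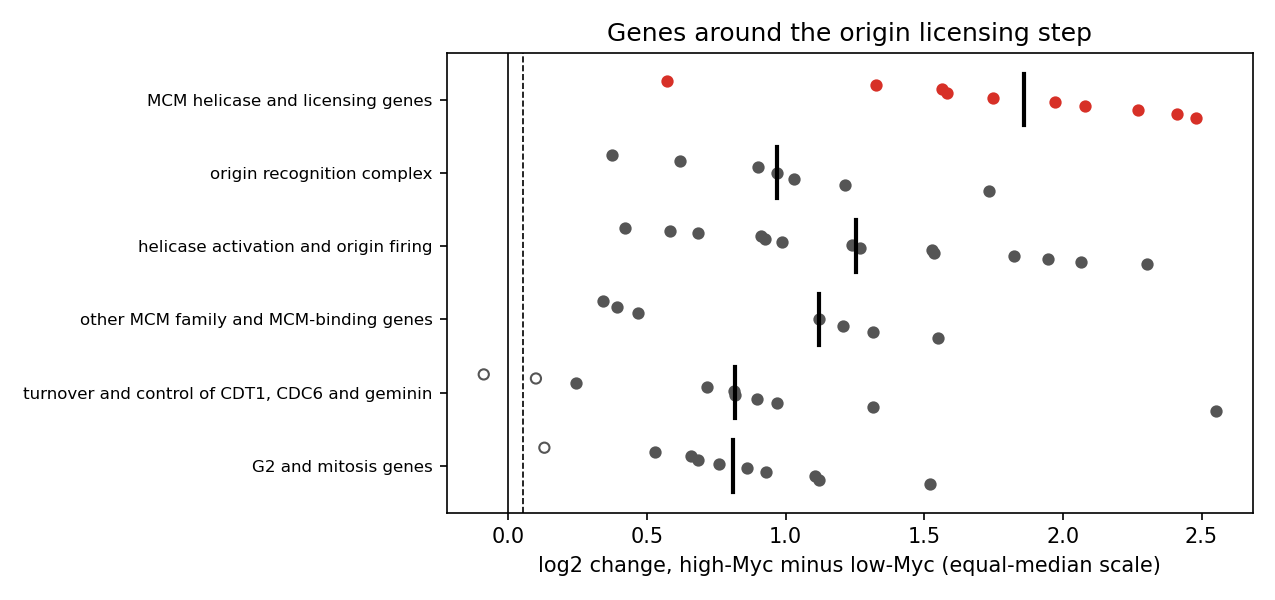
Log2 change from low-Myc to high-Myc on the equal-median scale for the 10 licensing genes (red) and for 5 lists of related genes; filled points were called higher, open points were not called, thick bars are medians and the dashed line is the median of all genes tested. The licensing genes have a median of 1.86 and the other lists between 0.81 and 1.25.

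Genes outside these lists with the pair of changes nearest to the members' medians (0.06 at 1 hour and 1.86 at 24 hours, over 3 group means) were URB1 at a distance of 0.015 log2, COQ3 at 0.029, RRM2 at 0.029, RRM1 at 0.034 and HOMER1 at 0.045. RRM1 and RRM2 encode the subunits of ribonucleotide reductase, which makes deoxynucleotides.

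Neighbouring genes, taken by position and not by value, were read as well. TPRA1 starts 180 bases from MCM2 on the opposite strand, inside the reach of the MCM2 window printed above, and rose by 0.43 ± 0.13 on the equal-median scale at 24 hours (limma adjusted p = 0.0127), beside 1.56 for MCM2. That call was lost as deposited (limma adjusted p = 0.0756) and after centring on genes tested (limma adjusted p = 0.142). AP4M1 overlaps MCM7 on the opposite strand and starts 40 bases from 1 of its annotated starts. It averaged 78.3 in low-Myc and 87.4 in high-Myc and was not called (0.31 ± 0.19, limma adjusted p = 0.173), beside 1.75 for MCM7. TPRA1 averaged 44.4 and 54.3 in the same groups. TPRA1 and AP4M1 thus lie below the background probe set at 194, and the part of this in their small changes was not tested. COPS6, at the other end of MCM7, rose by 0.51. PRKDC, next to MCM4, rose by 1.47 ± 0.05 and APRT, next to the end of CDT1, by 1.16 ± 0.06. The differences between neighbours were not tested.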

How the data were processed

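The deposited table holds linear intensities per probe set, which the authors summarised using MAS5, per the submitters' processing notes; the sources used here do not give its version or scaling target. Of 49495 probe sets, 49293 were human and 100 were ERCC, and 45278 human ones carried 1 symbol. No detection calls were given, so dim values include background. The number of arrays limits the precision.

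Per-cell values are log2 intensities minus a loess curve fitted robustly to each array's ERCC probe sets (span 0.7, degree 1). Equal-median values are centred on the array's median over human probe sets. A gene is its brightest probe set, tested if its mean exceeds the 40th percentile (33.8). Differences were fitted with limma 3.58.1 (R 4.3.3) in 1 model of all 6 arrays (variance trend, two-sided tests), Benjamini-Hochberg adjusted over 12198 genes, threshold 0.05. The borrowed spread gave 9.21 degrees of freedom for per-cell values and 12.9 for equal-median values. Named were MYC, all members, and up to 4 genes of each list by size of change, plus those against their list. Likeness is the distance in log2 from the members' median changes. On simulated data with 100 changed genes per size, 91% to 93% of changes of 0.5 log2 and 100% of changes of 1 log2 were recovered, with 12198 genes in each comparison. False calls numbered 7 to 14. The simulated noise was normal, with 1 spread per level of intensity, balanced rises and falls and no shift between arrays. The real data are less simple, so these rates check the fit and are not rates for these arrays. Members, lists and tests were chosen with earlier results of these data known. Alternatives covered filters, probe sets, scalings, a pseudocount of 16, the fit, a replicate block and each array left out. The scalings of the lists and neighbours, and other probe sets for the 6 ring subunits, were added after seeing the data.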

Additional observations from a re-analysis of the deposited data

How the results depend on the processing

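In high-Myc against low-Myc and against mid-Myc, all members tested stayed called higher in every alternative run on both scales. MCM5 and GMNN have no second probe set, so 8 were tested there. At 1 hour calls depended on the processing. Per cell, 9 members were called, and 5 with 1 ERCC factor per array, where 7615 and 5732 of 12198 genes were called higher. Some calls were lost with an array left out. Without mid-Myc replicate 2 the CDT1 change was 0.29, and without mid-Myc replicate 1 the MCM5 change was 0.20. On the equal-median scale, 2 were called, and 1 with the mean of probe sets, the next brightest probe set or no variance trend. Of all genes, 3139 of 12198 were called higher, and in those settings 2994 of 12198, 1567 of 7173 and 2149 of 12198. Leaving out an array gave 1 to 3 (1 without low-Myc replicate 2 or mid-Myc replicate 2, 3 without mid-Myc replicate 1). The median change of all genes also moved there. It was 0.08 without low-Myc replicate 2, 0.08 without mid-Myc replicate 2 and 0.11 without mid-Myc replicate 1. Such fits leave 1 array in a group, so these member counts are not read as a property of the members. MCM4 turned from 0.02 to -0.16 under quantile normalization (limma adjusted p = 0.0296), -0.17 under cyclic loess (0.0227) and -0.13 as deposited (0.0467). The scalings set all genes at another level: their 1-hour median was 0.09 on the equal-median scale and -0.06 as deposited, and at 24 hours 0.05 and, after centring on the genes tested, -0.15. The mean of probe sets gave -1.04 and -1.15 for CDT1 minus GMNN (high-Myc against low-Myc and against mid-Myc) and 0.015 and 0.070 for CDC6 minus GMNN (high-Myc and mid-Myc against low-Myc). Same-numbered arrays did not deviate together (correlations over genes from -0.009 to 0.019). No pairing by number was therefore seen, though this cannot show that the samples were not paired. With the replicate block, 10 members were called in both 24-hour comparisons, and at 1 hour 8 per cell and 2 at equal medians. Of the 12198 genes, 7583 per cell and 3207 at equal medians were then called higher at 1 hour. At 24 hours 11085 and 4618 were against low-Myc, and 9955 and 4095 against mid-Myc. With 2 arrays per group, and no detection calls for dim genes such as MCM5, small changes at 1 hour are the least certain.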
